A study of Mus musculus with 26 samples.

Results

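Transverse aortic constriction (TAC) narrows the aortic arch with a suture and makes the left ventricle pump against a raised pressure. In a sham operation the vessel is exposed but not narrowed. The arrays described here are the 4 of mouse hearts 10 d after TAC and the 4 of mouse hearts 10 d after sham surgery, 8 of the 26 arrays of a study that also covered 48 h and 3 wk. They were chosen by their titles, which name the duration, the operation and the replicate number. The groups differ only by the operation as far as the labels go, and no allele, drug or transgene is named for either. Strain, sex, age, the region of the heart and the number of animals behind an array are not stated. Nothing says that the arrays of a group came from separate animals, so the p-values below cover the spread between arrays and no more. Each array was an Affymetrix MG_U74Av2 GeneChip, with total RNA as the starting material. A value is the intensity of a probe set, a group of short probes to 1 transcript. All values below are log2 intensities unless said otherwise, with sham and TAC arrays listed in the order of replicates 1 to 4. Levels are compared within a probe set, never between probe sets. The label "heart" was checked against 13 cardiomyocyte markers, which read between 9.98 and 17.74 on the 8 arrays, with none at the floor of 7.39.

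A pressure-loaded heart grows by enlargement of its muscle cells. These cells switch back on genes of the fetal ventricle, such as the natriuretic peptides, skeletal actin and the slow myosin heavy chain, and lower genes for burning fatty acids. Fibroblasts between the muscle cells become active and lay down collagen and other matrix, vessels and macrophages remodel alongside, and in mice the growth is well under way in the second week. In RNA of whole tissue, more cells of a type and more RNA per cell cannot be told apart.

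TAC and sham arrays separated in the data. On the first principal component, which held 28.4% of the variance, the sham arrays lay at -22.1 to -13.73 and the TAC arrays at 8.13 to 21.26, with TAC replicate 1 nearest to sham. Arrays of 1 group correlated at 0.940 to 0.959 and arrays of different groups at 0.919 to 0.944 over the probe sets tested. TAC replicate 4 was scanned on another day and came from another chip lot than the other 7 arrays, so its scan day and lot cannot be told apart. It lay at -26.79 on the second component (15.3% of the variance), followed by sham replicate 3 at -16.79. The ratio of 3-prime to 5-prime probe sets of Gapdh, a sign of RNA degradation, was 0.83 to 0.97 in TAC and 0.84 to 0.97 in sham arrays (exact permutation test, two-sided p = 0.886). That of Actb was 0.80 to 1.44 and 0.95 to 1.11 (exact permutation p = 0.80), and TAC replicate 4 held the lowest value.

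Of 5564 genes tested, each by its brightest probe set, 169 rose and 111 fell in TAC hearts at 10 d, which is 3.04% and 1.99% of the genes tested. A gene was called at an adjusted p under 0.05 (limma with Benjamini-Hochberg adjustment over all 7297 probe sets tested). At the probe set level 355 were called (4.87%), 212 higher (2.91%) and 143 lower (1.96%), and 1531 had an unadjusted p under 0.05. The 8 arrays did not overlap between groups for 257 of the 280 called genes (5.03% of those tested). Over all genes tested 891 (16%) did not overlap, 441 with every TAC array above (7.93%) and 450 with every one below (8.09%). With every array centred on its median, 224 probe sets were higher and 90 lower. The median called rise was 0.73 and the median called fall -0.59, and 52 rises but 10 falls reached 2-fold. The median over all genes tested was -0.018. Without TAC replicate 4, 157 of the 280 genes were still called, and with the scan day as a block 199 were. All 280 kept their direction in both, which give the same estimates at 10 d. For the 257 without overlap, leaving out 1 array could not have turned the direction.

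**Figure D1:**
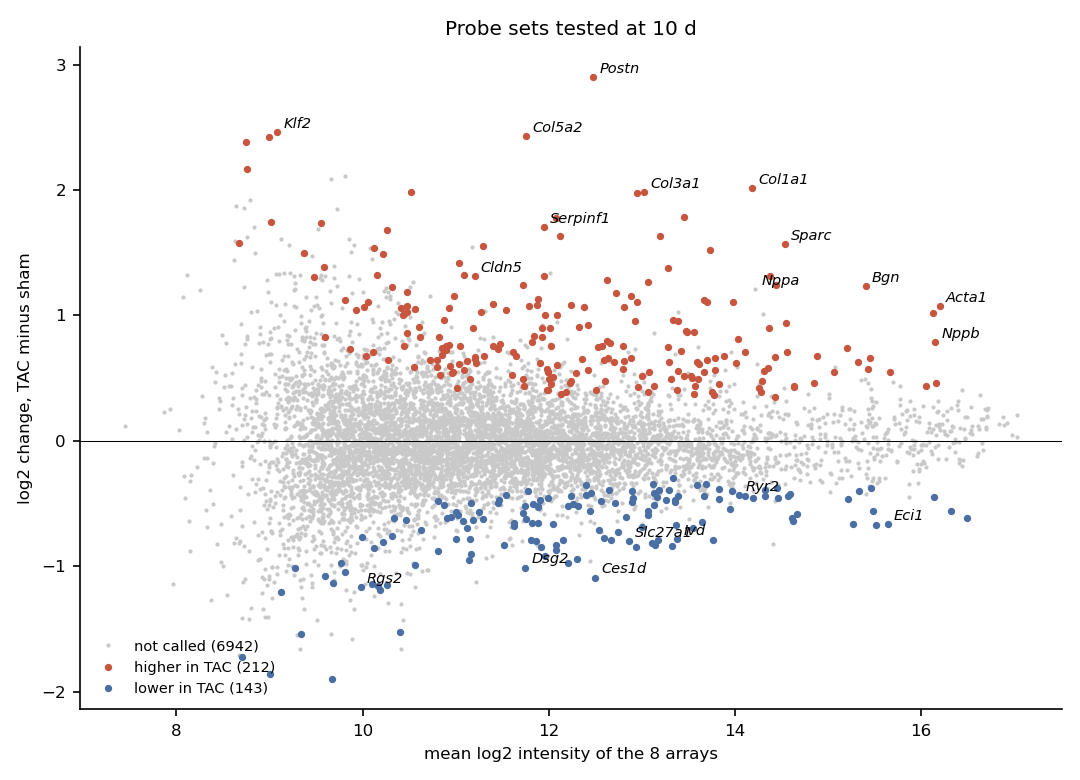
Log2 change (TAC minus sham, vertical axis) of each of the 7297 probe sets tested at 10 d against its mean log2 intensity over the 8 arrays (horizontal axis). Red points are the 212 probe sets called higher, blue points the 143 called lower and grey points those not called; matrix genes lead the rises at middle and high levels, and Nppa lies among the points not called.

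Interstitial collagens formed the group with the largest rise. Of 10 tested genes of the list, 7 rose and 0 fell, with a median of 1.38 against -0.018 over all genes. Col1a1, the main chain of type I collagen (probe set 94305_at), read 13.27, 13.08, 13.26 and 13.10 in sham and 14.91, 15.16, 15.38 and 15.33 in TAC arrays. The nearest arrays of the groups were 1.65 apart and TAC replicate 1 was the lowest TAC array. The rise was 2.02 ± 0.25 (SE; 4.05-fold; limma adjusted p = 2.73e-05), and its other probe set rose by 1.16. Col5a2, a type V chain that sets the width of collagen fibrils, read 10.62, 10.41, 10.54 and 10.61 in sham and 12.32, 13.26, 13.18 and 13.14 in TAC arrays. Here too replicate 1 stood below the other TAC arrays, which lay within 0.12 of each other. Its rise was 2.43 ± 0.40 (adjusted p = 0.000542). Col3a1, the type III chain abundant in distensible tissue, rose by 1.98, Col8a1, a non-fibrillar collagen made by vascular cells and activated fibroblasts, by 1.78, and Col6a2, a chain of the microfibrillar type VI collagen, by 1.63. The other type VI chains rose less, Col6a1 by 1.12 and Col6a3 by 1.07. Other probe sets of Col3a1 differed by 1.74, which was called, and by 0.915 with overlap, which was not. All 7 calls held without TAC replicate 4 and with the scan day as a block.

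Postn was the gene with the largest rise. It encodes periostin, a matricellular protein that activated fibroblasts secrete. Sham arrays read 11.35, 11.02, 11.001 and 10.72 and TAC arrays 13.08, 14.51, 14.02 and 14.10 (probe set 92593_at). Every TAC array was above every sham array by at least 1.73, and replicate 1 was again the lowest of the TAC arrays. The rise was 2.90 ± 0.34 (7.48-fold; limma adjusted p = 1.42e-05). Of the 19 tested adhesive and matricellular genes 4 rose and 0 fell (median 0.34). The others were Sparc, a collagen-binding protein of remodelling matrix (1.57, adjusted p = 0.000234), Fn1, which encodes fibronectin (0.79), and Sparcl1, a relative of Sparc (0.64). Ccn2, connective tissue growth factor, read 13.20, 12.79, 12.82 and 12.70 in sham and 13.08, 14.20, 14.19 and 14.16 in TAC arrays. Its TAC replicate 1 lay within the sham range, and the difference of 1.03 ± 0.41 did not pass (adjusted p = 0.145).

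The basement membrane list, the sheet-like matrix around muscle cells and capillaries, had 6 rises and 0 falls among 15 tested genes (median 0.40). Col4a1, a type IV collagen chain that forms the sheet's network, had the smallest adjusted p of all genes (4.05e-06). It read 13.65, 13.72, 13.69 and 13.80 in sham and 14.74, 15.20, 15.09 and 15.08 in TAC arrays. The sham arrays lay within 0.15 of each other and 0.94 below the lowest TAC array. Its rise was 1.31 ± 0.14. Col4a2, its partner chain, rose by 0.94. Col18a1 and Col15a1, whose products link basement membranes to the tissue around them, rose by 1.08 and 1.07. Hspg2, the heparan sulfate proteoglycan perlecan, rose by 0.82 and Lama4, a laminin chain of vessels, by 0.48.

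Elastic fibre and microfibril genes had 5 rises and 0 falls among 9 tested (median 1.06). Without TAC replicate 4, 3 were called higher (median 0.84), and the lowest median with any 1 array left out was 0.63. Fbln2, a fibulin that bridges elastin and microfibrils, read 12.32, 12.44, 12.44 and 12.52 in sham and 13.39, 13.71, 13.85 and 13.84 in TAC arrays, with no overlap. Its rise was 1.27 ± 0.17 (limma adjusted p = 6.98e-05). Eln, elastin itself, rose by 1.98 ± 0.53 (adjusted p = 0.0284), but its TAC arrays spread from 13.16 to 14.37 and the adjusted p was 0.0796 without TAC replicate 4. The other probe set of Eln differed by 1.71 and was not called. Mfap5, a microfibril glycoprotein, rose by 1.56, while its other probe set differed by -0.12. Ltbp2, a latent TGF-beta binding protein, had 2 sham arrays at the floor, so its rise of 1.75 depends on where the floor was set. Of the small leucine-rich proteoglycans, which bind collagen fibrils and steer their spacing, 2 of 5 rose. Bgn (biglycan) rose by 1.24 ± 0.21 and Lum (lumican) by 0.88 ± 0.14.

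Calls differed between genes that process collagen and genes that degrade matrix. None of 13 tested genes of collagen processing and crosslinking passed (median 0.083). Serpinh1, the collagen chaperone, read 13.60, 13.65, 13.32 and 13.61 in sham and 13.68, 13.94, 13.86 and 13.98 in TAC arrays (adjusted p = 0.201). The gap between the groups was 0.03, where that of Col1a1 was 1.65. Pcolce, which speeds the trimming of procollagen, read below all sham arrays in TAC replicate 1 and above them in the other 3. Of 14 tested matrix proteases and inhibitors, Adam19, a membrane-bound sheddase, rose by 1.06 and Mmp14, a membrane-bound collagenase, by 0.90 (list median 0.30). These were 14.3% of the list, against 3.04% of all genes. Mmp2, Mmp3, Mmp9 and Mmp13 did not pass the filter on level. Of 20 lysosomal genes 3 rose, Ctsz by 1.00, Ctss, the cathepsin of antigen-presenting cells, by 0.83, and Cd63, a lysosomal membrane protein, by 0.57. None of 17 integrin and focal adhesion genes passed.

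Among 18 TGF-beta, BMP and activin genes, Fstl1 rose and none fell (median 0.17). This single rise was 5.6% of the list, against 3.04% of all genes. Fstl1 is a secreted follistatin-like glycoprotein. Fstl1 read 11.66, 11.38, 11.08 and 11.06 in sham and 12.08, 13.10, 12.84 and 12.42 in TAC arrays, and rose by 1.32 ± 0.22 (limma adjusted p = 0.00054). No growth factor or receptor gene (22 tested) and no Wnt or Frizzled gene (11 tested) passed. Of the 13 renin, adrenergic and endothelin genes, Ace rose (7.7% of the list, against 3.04% of all genes) and Rgs2 fell. Ace, the enzyme that makes angiotensin II, read 10.60, 10.97, 10.80 and 10.66 in sham and 11.71, 11.70, 11.85 and 11.86 in TAC arrays. The TAC arrays lay within 0.16 of each other and at least 0.74 above sham (1.02 ± 0.16, adjusted p = 0.000322). Rgs2, which shortens signalling through Gq-coupled receptors, fell by 1.16 on the log2 scale (adjusted p = 0.0369, or 0.0663 without TAC replicate 4).

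**Figure D2:**
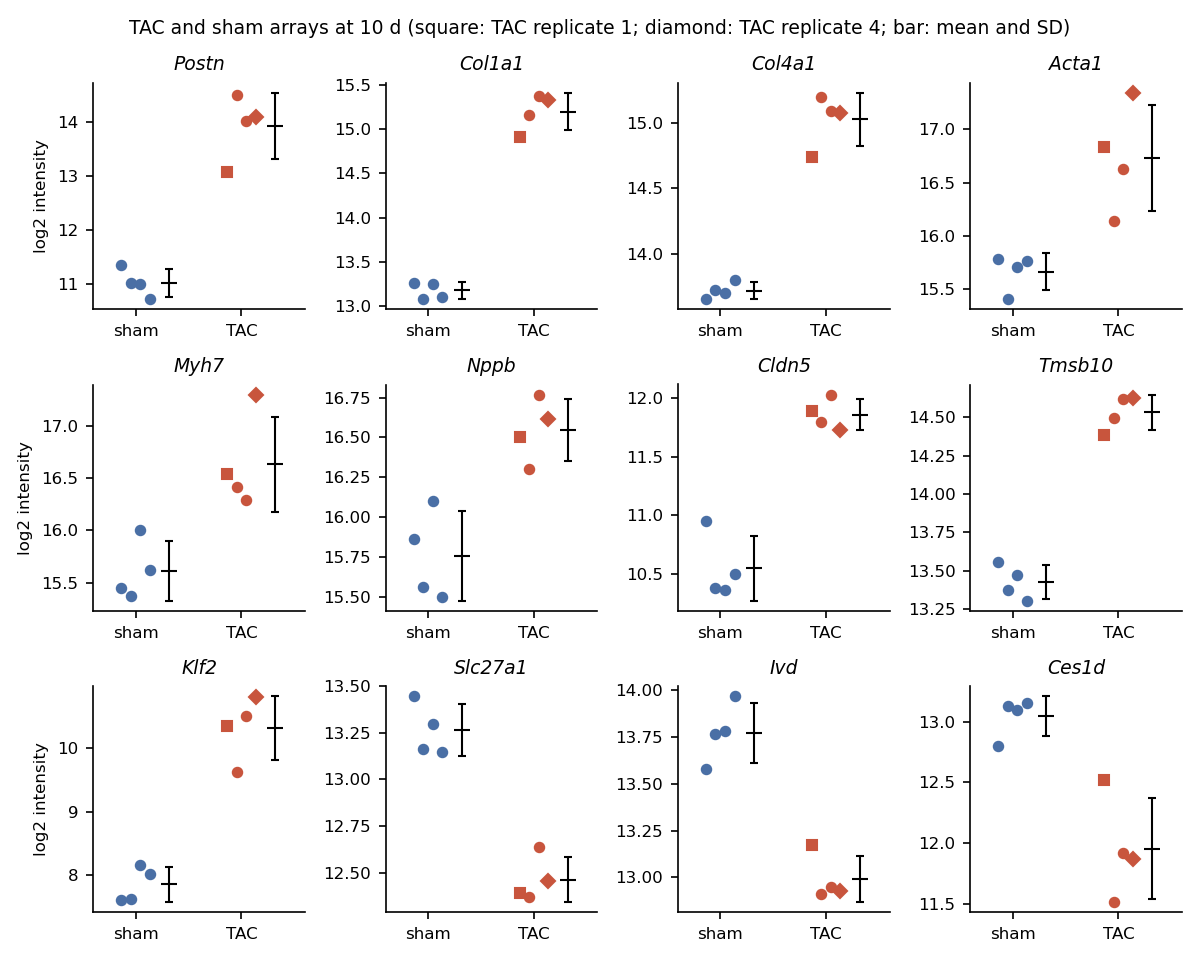
Log2 intensity (vertical axes, each with its own range) of 12 genes on the 4 sham (blue) and 4 TAC (red) arrays of 10 d. Squares mark TAC replicate 1, diamonds TAC replicate 4, and the black bar the mean with its SD (n = 4); the 2 groups do not overlap for any of the 12, and Postn, Col1a1 and Col4a1 show replicate 1 as the lowest TAC array.

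Of 20 genes of stretch and the fetal muscle programme, 6 rose and Corin fell (median 0.22). Without TAC replicate 4 the median was 0.082 and 4 of the list were called higher. Acta1, the skeletal actin of fetal and overloaded ventricle, read 15.78, 15.40, 15.71 and 15.76 in sham and 16.84, 16.14, 16.62 and 17.34 in TAC arrays (probe set 100381_at). The groups did not overlap, and TAC replicate 4 was the highest and TAC replicate 2 the lowest TAC array. Acta1 rose by 1.07 ± 0.18 (limma adjusted p = 0.000547), and by 0.87 without TAC replicate 4. Myh7, the slow beta-myosin heavy chain, read 15.45, 15.37, 16.00 and 15.62 in sham and 16.54, 16.41, 16.29 and 17.30 in TAC arrays. Its TAC arrays were all above sham, by as little as 0.28 between replicate 3 of each, and it rose by 1.02 ± 0.23 (adjusted p = 0.00797). Its probe set shares probes with related genes, and the other probe set of Myh7 differed by 1.27 with overlap and was not called.

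Rcan1, an inhibitor of calcineurin that calcineurin signalling itself induces, read 12.54, 12.70, 12.55 and 12.60 in sham and 13.48, 14.48, 13.91 and 14.03 in TAC arrays. It rose by 1.38 ± 0.28 (limma adjusted p = 0.00396). Fhl1, a LIM protein of the sarcomere that senses stretch, read 13.94, 13.82, 13.74 and 13.75 in sham and 14.25, 15.52, 14.97 and 15.48 in TAC arrays. TAC replicate 1 was 0.43 above the sham mean and the other 3 at least 1.15 above it, and Fhl1 rose by 1.24 ± 0.23 (adjusted p = 0.00178). Nppb, the B-type natriuretic peptide, read 15.87, 15.56, 16.10 and 15.50 in sham and 16.51, 16.30, 16.77 and 16.61 in TAC arrays. It rose by 0.79 ± 0.21 (adjusted p = 0.0249, or 0.0623 without TAC replicate 4). Des, the muscle intermediate filament desmin, rose by 0.49. Ankrd1, a stretch-responsive ankyrin repeat protein, overlapped between groups (0.26, adjusted p = 0.398). Corin, the protease that activates natriuretic peptides, fell by 0.80 on the log2 scale (adjusted p = 0.00381).

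The promoters of 4 called genes are shown because each holds a CArG box, the element that serum response factor binds and that is well known in muscle and actin genes. They are RefSeq windows of the GRCm38.p6 build, 250 bases before to 50 after the start of the gene, 5′ to 3′ on the strand of the gene, with the box in capitals. Acta1 lies on the minus strand at chr8:123894726-123895025, Fhl1 on the plus strand at chrX:56779433-56779732, Actg1 (cytoplasmic gamma-actin, a rise of 0.57) on the minus strand at chr11:120348446-120348745, and Hopx, a gene that fell, on the minus strand at chr5:77115074-77115373. The box starts 73, 102, 90 and 83 bases before the start of the gene.
Acta1: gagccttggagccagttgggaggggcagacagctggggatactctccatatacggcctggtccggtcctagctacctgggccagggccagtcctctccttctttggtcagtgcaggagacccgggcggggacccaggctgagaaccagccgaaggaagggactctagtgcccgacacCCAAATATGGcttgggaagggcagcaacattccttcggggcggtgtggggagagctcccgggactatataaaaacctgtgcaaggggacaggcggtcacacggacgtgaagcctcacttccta
Fhl1: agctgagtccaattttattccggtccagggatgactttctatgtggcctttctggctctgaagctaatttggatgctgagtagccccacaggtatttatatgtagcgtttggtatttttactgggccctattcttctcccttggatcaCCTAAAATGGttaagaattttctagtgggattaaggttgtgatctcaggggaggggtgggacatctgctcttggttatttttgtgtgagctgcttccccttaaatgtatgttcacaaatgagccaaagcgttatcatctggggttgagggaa
Actg1: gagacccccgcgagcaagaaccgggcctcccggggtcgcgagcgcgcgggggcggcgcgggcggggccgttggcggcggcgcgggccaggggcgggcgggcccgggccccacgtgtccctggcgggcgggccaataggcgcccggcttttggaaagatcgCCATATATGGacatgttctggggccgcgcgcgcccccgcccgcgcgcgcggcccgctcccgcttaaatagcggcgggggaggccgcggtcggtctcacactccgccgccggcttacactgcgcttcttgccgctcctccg
Hopx: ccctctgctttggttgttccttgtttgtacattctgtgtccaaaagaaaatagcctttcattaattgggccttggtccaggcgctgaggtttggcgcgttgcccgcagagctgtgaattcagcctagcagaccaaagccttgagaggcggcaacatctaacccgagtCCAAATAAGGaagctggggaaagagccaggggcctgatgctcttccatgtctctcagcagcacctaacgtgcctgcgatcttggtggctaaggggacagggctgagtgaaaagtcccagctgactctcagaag
The box reads the same in consensus on both strands, so 1 search covers both. It was found in 6 of 137 risen genes that had a promoter in the table (4.38%), in 4 of 85 fallen genes (4.71%), in 86 of 4469 genes tested (1.92%) and in 1.63% of all 32851 windows. The risen genes were Acta1, Fhl1, Actg1, Mpeg1, Cnn2 and Anxa5, and the fallen genes Hopx, Scp2, Herpud1 and Selenbp1. Both directions held matches at about the same share, and a match is a run of letters, not a measured binding site.

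Acta1 and Myh7 aside, which were placed among the fetal genes, none of 15 sarcomere genes passed (median 0.19, or 0.022 without TAC replicate 4). Myh6, the adult alpha-myosin heavy chain, read 17.02, 16.84, 17.24 and 16.72 in sham and 17.05, 16.61, 16.78 and 17.56 in TAC arrays. TAC replicate 4 was the highest and TAC replicate 2 the lowest of the 8, and the Myh6 difference of 0.046 had an adjusted p of 0.909. TAC replicate 4 was also the highest array for Tnni3, Mybpc3, Cox6a2 and Rpl41, all very bright probe sets. The 100 brightest genes had a median difference from the sham mean of 0.18 on TAC replicate 4, 0.20 on sham replicate 3, 0.15 on TAC replicate 1 and -0.29 on TAC replicate 2. Acta1 and Myh7 belong to this bright range, and the part of this shift in their values was not tested; both were called without TAC replicate 4.

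Of 16 calcium cycling genes, Casq1 rose and Ryr2 fell. The single rise was 6.2% of the list, against 3.04% of all genes, of which 1.99% fell. Casq1, the skeletal calsequestrin that stores calcium in the sarcoplasmic reticulum, read 14.00, 13.75, 14.33 and 14.30 in sham and 14.53, 14.84, 14.69 and 15.01 in TAC arrays (0.67 ± 0.14, limma adjusted p = 0.00696). Ryr2, the cardiac calcium release channel, read 14.30, 14.40, 13.98 and 14.37 in sham and 13.96, 13.90, 13.85 and 13.62 in TAC arrays. Its groups were only 0.02 apart (-0.43, adjusted p = 0.0329, or 0.115 without TAC replicate 4). Atp2a2, the SERCA2 calcium pump, read 16.21, 16.20, 16.42 and 15.80 in sham and 16.34, 15.92, 16.15 and 16.74 in TAC arrays, with full overlap (adjusted p = 0.687). None of the 18 tested genes of the ion channel and pump list passed (median -0.27), while Kcnj12, a channel outside the list, fell.

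Nppa, the atrial natriuretic peptide, was not called. It read 14.75, 13.54, 13.25 and 12.91 in sham and 13.62, 14.85, 15.63 and 15.18 in TAC arrays, a difference of 1.21 ± 0.62 (limma adjusted p = 0.27). TAC replicate 1 lay among the sham arrays, and sham replicate 1 lay between TAC replicates 1 and 2. Myl7, the atrial regulatory myosin light chain, read 15.72, 13.04, 13.15 and 10.70 in sham and 9.55, 13.30, 15.28 and 14.49 in TAC arrays. Sham arrays spanned 5.02 and TAC arrays 5.73 log2 units, and the group means differed by -0.002. Myl4, the atrial essential light chain, read 15.45, 12.85, 12.87 and 9.93 in sham and 9.66, 13.19, 15.65 and 14.69 in TAC arrays, the same order within TAC as Myl7 and Nppa. Within sham, too, the array highest for Nppa was the highest for Myl7 and this probe set of Myl4, and the lowest the lowest. The dimmer probe set of Myl4 kept the order within TAC. In sham it read 11.194, 11.508, 11.175 and 10.617, so there replicate 2 was the highest and replicate 4 the lowest. The part that atrial tissue in a sample has in the Nppa values was not tested.

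**Figure D3:**
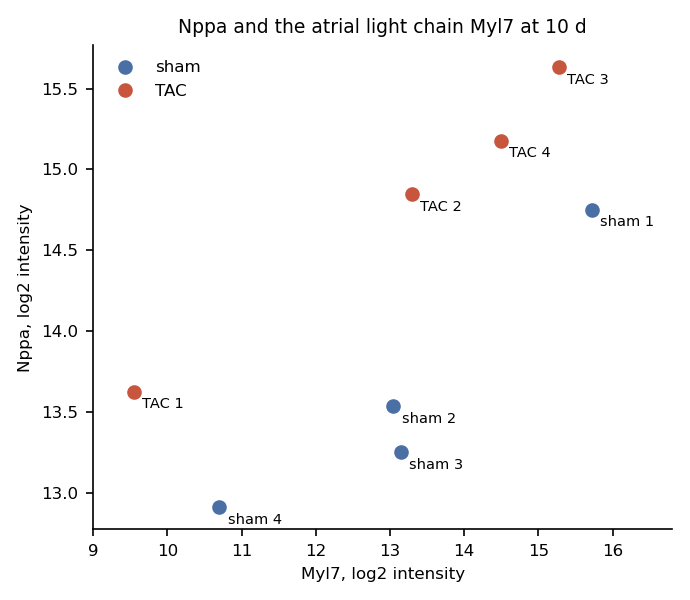
Nppa (vertical axis) against the atrial light chain Myl7 (horizontal axis), both in log2 intensity, for the 4 sham (blue) and 4 TAC (red) arrays of 10 d, each labelled with its replicate number. TAC replicate 1 has the lowest Myl7 (9.55) and sham replicate 1 the highest (15.72), and in each group the array with the lowest Myl7 also has the lowest Nppa.

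Of 20 endothelial marker genes 6 rose and 0 fell (median 0.24), and 4 were called higher without TAC replicate 4. The rises were 30.0% of the list, against 3.04% of all genes. Cldn5, the claudin that seals endothelial junctions, read 10.95, 10.38, 10.36 and 10.50 in sham and 11.89, 11.80, 12.03 and 11.72 in TAC arrays (probe set 104516_at). The nearest arrays of the groups, sham replicate 1 and TAC replicate 4, were 0.77 apart. It rose by 1.31 ± 0.17 (limma adjusted p = 3.1e-05). Cd34, a sialomucin of capillary endothelium and progenitor cells, rose by 1.29, Tie1, an endothelial receptor kinase, by 0.65, Cdh5, the cadherin of endothelial junctions, by 0.62, Icam2 by 0.49 and Ly6e by 0.46. The Icam2 call (limma adjusted p = 0.0496) was lost in 14 of the alternative settings, and the arrays of Ly6e overlapped between groups. Cd93, a receptor of endothelial and myeloid cells, read 12.22, 12.38, 12.40 and 12.57 in sham and 13.34, 13.58, 13.50 and 13.58 in TAC arrays. It rose by 1.11 ± 0.13 (adjusted p = 2.02e-05).

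Immediate early and flow-responsive genes had 4 rises and 0 falls among 30 tested (median 0.33), and 2 were called higher without TAC replicate 4. Klf2, the transcription factor that shear stress induces in endothelium, read 7.61, 7.62, 8.16 and 8.02 in sham and 10.34, 9.62, 10.50 and 10.80 in TAC arrays. The sham arrays lay near the floor of 7.39, so the rise of 2.46 ± 0.57 (limma adjusted p = 0.0113) goes from a dim level to a clear one. Egr1, which growth stimuli induce, read 11.26, 11.26, 11.71 and 12.10 in sham and 12.84, 12.70, 12.22 and 12.58 in TAC arrays. Its groups were 0.11 apart (1.00 ± 0.26, adjusted p = 0.0267, or 0.059 without TAC replicate 4). Ier2 rose by 0.84 and Jund, a subunit of AP-1, by 0.55. Among 24 tested genes of the cell cycle there were 3 rises and no fall (median 0.37). Cdc20, an activator of the mitotic ubiquitin ligase, read 10.02, 10.48, 10.30 and 10.77 in sham and 11.17, 11.46, 11.35 and 11.44 in TAC arrays (0.96 ± 0.19, adjusted p = 0.0032). H2az1, a histone variant, rose by 0.76 and Ccnd3, a G1 cyclin, by 0.39. Top2a, Aurka, Aurkb and Birc5, genes of dividing cells, did not pass the filter on level.

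Macrophage and monocyte markers had 7 rises and 0 falls among 12 tested (median 0.50; 58.3% rose, against 3.04% of all genes), and 5 were called higher without TAC replicate 4. Lyz2, lysozyme, read 12.64, 12.21, 12.26 and 11.79 in sham and 13.12, 13.09, 13.04 and 12.85 in TAC arrays (0.80 ± 0.20, limma adjusted p = 0.0194). The 3 chains of complement C1q, which resident macrophages make, rose by 0.63 (C1qc), 0.57 (C1qb) and 0.39 (C1qa). The dimmer probe set of C1qb differed by -0.073. C1qa read 13.60, 13.52, 13.54 and 13.56 in sham and 13.98, 13.81, 13.96 and 14.04 in TAC arrays. Its 4 sham arrays lay within 0.08 of each other and below every TAC array (adjusted p = 0.00799). Mpeg1 and C1qb were not called without that array (adjusted p of 0.111 and 0.0573). Mpeg1, Tyrobp and Csf1r rose by 0.74, 0.62 and 0.55, and the other probe set of Csf1r differed by -0.69. Adgre1, Fcgr3 and Itgam did not pass the filter on level.

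Of 23 tested chemokine, cytokine and receptor genes 4 rose and 0 fell (median 0.095), and 2 were called higher without TAC replicate 4. The 4 rises were 17.4% of the list, against 3.04% of all genes. They were Il4ra (1.68), Tnfrsf1a, the type 1 TNF receptor (0.76), Csf1r and Icam2. The other probe set of Tnfrsf1a differed by -0.305 and was not called. Il4ra read 10.92, 8.24, 8.16 and 10.37 in sham and 11.08, 11.03, 10.95 and 11.36 in TAC arrays. Sham replicate 1 was within 0.03 of the lowest TAC array, and the adjusted p of 0.0244 became 0.0691 without TAC replicate 4. Another 21 genes of the list, among them Il1b, Il6, Tnf, Ccl3 and Cxcl10, did not pass the filter on level. The 4 rises of the complement list (16 tested, median 0.23) were Cd93 and the C1q chains. Of 27 antigen presentation and interferon genes only Ifitm3, an interferon-induced membrane protein, rose (0.46 ± 0.09, adjusted p = 0.00402). This was 3.7% of the list, near the 3.04% of all genes.

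The actin cytoskeleton list had the most rises of any list, 15 of 40 tested with 0 falls (median 0.48). Tmsb10, a thymosin that binds actin monomers, read 13.56, 13.37, 13.47 and 13.30 in sham and 14.39, 14.50, 14.62 and 14.63 in TAC arrays. The groups were 0.83 apart and each lay within 0.25 (1.11 ± 0.16, limma adjusted p = 0.000195). Lcp1, the actin bundler L-plastin of leukocytes, rose by 1.10 and Capg, a filament capping protein of macrophages, by 1.07. Coro1a, a coronin of leukocytes, rose by 1.06 although sham replicate 4, at 11.02, lay within the TAC range of 10.83 to 11.07. The other members were of broader expression, among them Marcks (1.05), Msn, which ties actin to the membrane (0.97), Tmsb4x (0.68), Cfl1, the filament-severing cofilin (0.58), and Actg1 (0.57). Capg, Coro1a and Lcp1 are leukocyte genes, and the part of the higher macrophage marker sum in their rises was not tested.

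Tubulin and intermediate filament genes had 4 rises among 18 (median 0.15). Nes, the intermediate filament nestin of progenitor and young vascular cells, read 12.26, 12.42, 12.42 and 12.57 in sham and 13.12, 13.17, 13.24 and 13.17 in TAC arrays (0.76 ± 0.13, limma adjusted p = 0.00065). Dynll1, a dynein light chain, rose by 0.71, Tuba1c by 0.66 and Lmna, the nuclear lamin A/C, by 0.43. Annexins and S100 proteins, which bind calcium at membranes, had 4 rises among 11 (median 0.52). Anxa2 read 13.14, 13.25, 13.06 and 13.12 in sham and 14.08, 14.26, 14.34 and 14.32 in TAC arrays (1.11 ± 0.19, adjusted p = 0.000587). Anxa1 rose by 1.01, S100a6 by 0.66 and Anxa5 by 0.52. Other probe sets of Anxa1 differed by 1.32, which was called, and by 0.37 with overlap, which was not. Emp1, a small membrane protein outside these lists, was among the 5 genes with the smallest adjusted p. It read 13.07, 12.88, 13.08 and 12.85 in sham and 13.89, 14.82, 14.54 and 14.72 in TAC arrays (1.52 ± 0.18, adjusted p = 2.02e-05).

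Fatty acid uptake and oxidation was the list with the most falls. Of its 28 tested genes 8 fell and 0 rose, with a median of -0.31 against -0.018 over all genes. Slc27a1, a fatty acid transport protein, read 13.44, 13.16, 13.30 and 13.14 in sham and 12.39, 12.37, 12.64 and 12.46 in TAC arrays. The groups were 0.51 apart (-0.80 ± 0.16, limma adjusted p = 0.00253). Eci1, an isomerase that brings unsaturated fatty acids into beta-oxidation, read 16.03, 15.87, 16.09 and 15.88 in sham and 15.63, 15.06, 15.26 and 15.28 in TAC arrays. TAC replicate 1 was the nearest to sham (-0.66 ± 0.14, adjusted p = 0.00715). The others were Ech1 (-0.62), Crat, which buffers acetyl units on carnitine (-0.58), Decr1 (-0.56), Slc25a20, the carnitine-acylcarnitine carrier (-0.54), Etfa (-0.43) and Hadh (-0.40). Without TAC replicate 4, 5 of the 8 were called, and Ech1 had an adjusted p of 0.106.

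Breakdown of branched-chain and other amino acids had 3 falls and 0 rises among 16 genes (median -0.27), where 1.99% of all genes fell. Ivd, which oxidises the leucine product isovaleryl-CoA, read 13.58, 13.77, 13.78 and 13.97 in sham and 13.17, 12.91, 12.95 and 12.93 in TAC arrays (-0.78 ± 0.15, limma adjusted p = 0.00178). Bckdha, a subunit of the branched-chain keto acid dehydrogenase, fell by 0.49 on the log2 scale and Asl, of the urea cycle, fell by 0.62. The adjusted p was 0.0707 for Bckdha and 0.106 for Asl without TAC replicate 4. Of 20 citric acid cycle genes Sdha, the flavoprotein of complex II, fell (-0.47; adjusted p = 0.0205, or 0.0804 without TAC replicate 4). None of 45 respiratory chain and ATP synthase genes passed (median -0.071). Of 12 creatine and adenylate kinases Ak4, a mitochondrial adenylate kinase, fell (-0.57, adjusted p = 0.0474), and 14 of the alternative settings lost it. Sdha and Ak4 were each the only call of their list, where 1.99% of all genes fell.

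Of 24 genes of glycolysis and glucose uptake 1 rose and 3 fell (median 0.048), and 1 of the falls was called without TAC replicate 4. The share that rose, 4.2%, lay near the 3.04% of all genes. The 3 falls among 24 genes stand against 1.99% of all genes that fell. Of the isoforms of phosphofructokinase, the pacemaker of glycolysis, 1 rose and 1 fell. Pfkp, the platelet form, read 10.10, 9.68, 10.17 and 9.82 in sham and 10.70, 11.25, 10.92 and 10.94 in TAC arrays (1.01 ± 0.25, limma adjusted p = 0.0182). The other probe set of Pfkp differed by 0.34 with overlap and was not called (adjusted p = 0.441). Pfkm, the muscle form, read 16.26, 16.34, 16.33 and 16.52 in sham and 16.17, 15.77, 15.91 and 15.82 in TAC arrays (-0.44 ± 0.12, adjusted p = 0.0362). Neither Pfkm nor the called probe set of Pfkp overlapped between groups, and the Pfkm call had an adjusted p of 0.0948 without TAC replicate 4. Slc2a4, the insulin-responsive glucose transporter GLUT4, fell by 0.46 on the log2 scale, with sham arrays at 14.62 to 14.76 and TAC arrays at 14.13 to 14.33. Gys1, muscle glycogen synthase, fell by 0.39 (adjusted p = 0.0382, or 0.0735 without TAC replicate 4). Of 17 genes of lipid hydrolysis and storage only Ces1d, a carboxylesterase that hydrolyses stored lipid, fell, where 1.99% of all genes did. Ces1d read 12.80, 13.13, 13.10 and 13.16 in sham and 12.52, 11.51, 11.92 and 11.87 in TAC arrays (-1.09 ± 0.20, adjusted p = 0.00188).

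Among 20 junction, desmosome and caveola genes, Cldn5, Pkp2 and Cavin1 rose and Dsg2 fell. Without TAC replicate 4, Pkp2 and Cavin1 had adjusted p of 0.118 and 0.0573, and the other probe set of each differed by 0.17 and was not called. Dsg2, the desmoglein of the intercalated disc, read 12.39, 12.28, 12.05 and 12.30 in sham and 11.41, 11.42, 11.26 and 10.89 in TAC arrays (-1.01 ± 0.19, limma adjusted p = 0.00155). Pkp2, a desmosomal plakophilin, rose by 0.45 although its arrays overlapped, from a probe set shared with related sequences. Of 19 cardiac and muscle transcription factors, Meox1, a homeobox factor of activated fibroblasts, rose by 1.42 ± 0.22 (adjusted p = 0.000285). This single rise was 5.3% of the list, against 3.04% of all genes. Hopx, a small homeodomain protein that binds no DNA itself and acts through other factors in heart muscle, read 15.76, 15.93, 15.85 and 15.85 in sham and 15.40, 15.12, 15.07 and 15.11 in TAC arrays. It fell by 0.67 on the log2 scale (adjusted p = 0.0387), Mef2a fell by 0.46 and Gata6 fell by 0.42. These 3 falls stand among 19 genes, where 1.99% of all genes fell. All 3 were lost without TAC replicate 4, with adjusted p of 0.0911, 0.135 and 0.154.

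Of 35 antioxidant and detoxification genes 2 rose and 3 fell. The share that rose was 5.7%, against 3.04% of all genes. The 3 falls among 35 genes stand against 1.99% of all genes that fell. Gstk1, a glutathione transferase of mitochondria and peroxisomes, read 12.99, 12.88, 12.97 and 13.10 in sham and 12.55, 11.97, 12.10 and 12.23 in TAC arrays (-0.77 ± 0.16, limma adjusted p = 0.00485). Gstm2, a mu-class transferase, fell by 0.59 and Cyp4b1 fell by 0.56. Mt2, a metallothionein, rose by 0.96, with TAC arrays at 13.83 to 13.91 and sham arrays at 12.74 to 13.12, and Txn1, thioredoxin, rose by 0.36. Without TAC replicate 4 neither Mt2 nor Cyp4b1 was called (adjusted p of 0.0907 and 0.0942), and 0 genes of the list were called higher. Of 31 chaperone and endoplasmic reticulum genes 2 fell and 0 rose, where 1.99% of all genes fell. Bag3, a co-chaperone of muscle, fell by 0.40 and Herpud1, of endoplasmic reticulum degradation, fell by 0.67. The other probe set of Bag3 differed by 0.15, and neither Bag3 nor Herpud1 was called without TAC replicate 4 (adjusted p of 0.117 and 0.132). Slc4a3, an anion exchanger of heart muscle, fell by 0.40 among 15 solute carriers. Bcl2l1, the survival factor Bcl-xL, fell by 0.44 among 18 cell death genes, with overlapping arrays. Slc4a3 and Bcl2l1 were each the only call of their list, where 1.99% of all genes fell. No gene passed among 38 of proteasome, ubiquitin and autophagy, 34 of ribosome and translation and 12 of the circadian clock.

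The 15 largest falls among genes without overlap held several outside these lists. Gtf3c4, a subunit of RNA polymerase III factor TFIIIC, fell by 1.19 on the log2 scale, and Rit2, a small GTPase known from neurons, fell by 1.14. Rit2 read 10.56, 10.86, 10.81 and 10.47 in sham and 9.58, 9.61, 9.17 and 9.77 in TAC arrays (limma adjusted p = 0.00121). Penk, the enkephalin precursor, read 12.86, 12.70, 12.84 and 12.69 in sham and 12.05, 11.66, 12.04 and 11.55 in TAC arrays (-0.94 ± 0.17, adjusted p = 0.00133). Its dimmer probe set differed by -0.23 with overlap and was not called. Hsd11b1, which regenerates active glucocorticoid, read 11.69, 11.71, 11.80 and 11.28 in sham and 10.49, 10.73, 10.80 and 10.67 in TAC arrays (-0.95 ± 0.18, adjusted p = 0.00211). For Rit2, Hsd11b1 and the brighter probe set of Penk the groups were apart by at least 0.47. Klf17, Slc7a2, Fam83f, Plbd1, Rmc1, Efnb3 and Cpsf7 fell by 0.83 to 1.08, and only Plbd1 and Slc7a2 of these were also called without TAC replicate 4. Kcnj12, an inward rectifier channel, fell by 1.20, but its TAC replicate 4 was at the floor and the adjusted p without that array was 0.166. Serpinf1, a secreted serpin outside the lists, was among the 15 largest rises (1.71 ± 0.26, adjusted p = 0.000285), and its other probe set differed by -0.50.

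Markers of other cell types were summed on each array, each gene by its brightest probe set. The macrophage sum was 50250 to 52613 in sham and 69231 to 76543 in TAC arrays, the fibroblast sum 194891 to 214484 and 239791 to 298706, and the endothelial sum 162696 to 172034 and 196482 to 228417. None of the 3 sums overlapped between groups. Of 18 fibroblast markers 5 rose and 0 fell (median 0.22), namely Postn, Col1a1, Mfap5, Meox1 and Lum, and 13 did not pass. The skeletal muscle sum was also higher without overlap, through Acta1 and Casq1, while Myh2 and Tnni2 were at the floor on all 8 arrays. The adipocyte sum was lower without overlap (16959 to 18737 in sham, 13813 to 16135 in TAC), with none of 6 tested genes called. Sums for cardiomyocytes, lymphocytes, neutrophils and mast cells, smooth muscle and pericytes, erythroid cells, atrial muscle, mesothelium, lung epithelium, and Schwann cells and neurons overlapped. None of 13 smooth muscle and pericyte genes passed, and Acta2, smooth muscle actin, read 12.42 to 12.70 in sham and 12.62 to 12.86 in TAC arrays. The part of cell number in the matrix, vessel and macrophage gene results was not tested.

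**Figure D4:**
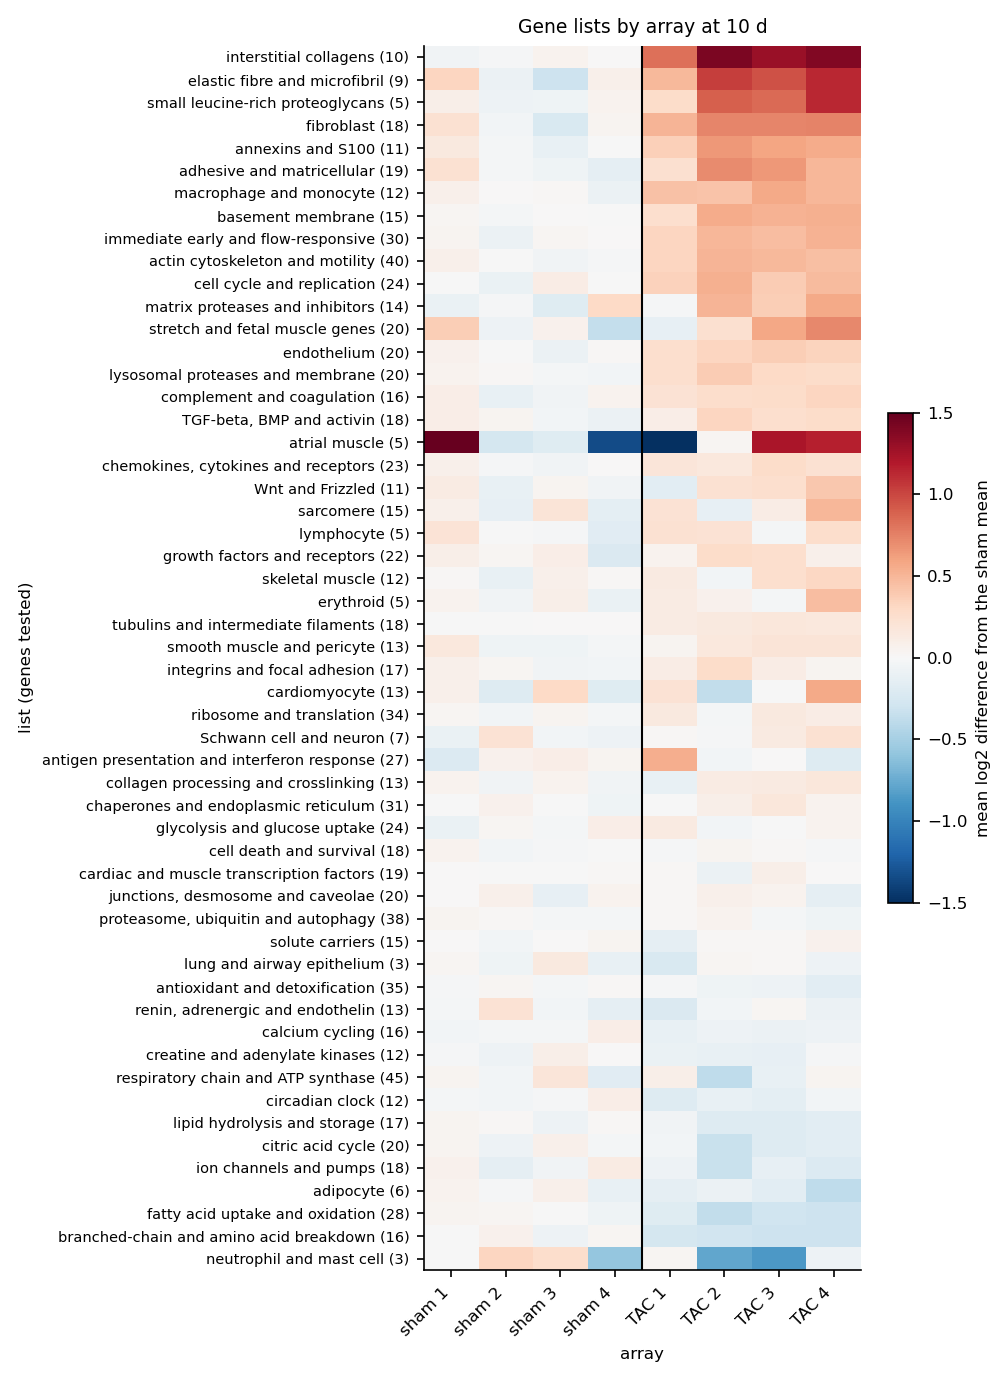
Mean log2 difference from the sham mean (colour) over the tested genes of each list (rows, with the number of genes) on each array of 10 d (columns, sham left and TAC right of the line). The interstitial collagens stand at the top with 0.83, 1.41, 1.29 and 1.39 on TAC replicates 1 to 4, and atrial muscle varies within both groups.

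The 4 TAC arrays did not carry the change equally. TAC replicate 1 was the least changed TAC array for 99 of the 169 rises and 61 of the 111 falls. Its mean over the interstitial collagens was 0.83 above sham, against 1.29 to 1.41 on the other 3, and over the elastic fibre genes 0.48 against 0.95 to 1.13. Over fatty acid genes it was -0.18 against -0.37 to -0.30. The lists of macrophage markers (0.44 against 0.42 to 0.57) and amino acid breakdown (-0.26 against -0.31 to -0.28) differed less between TAC arrays. Without replicate 1, 389 probe sets were called, more than the 355 with it. The pressure gradient of each animal is not stated.

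The last comparison asked where the effect at 10 d differed from that at the other durations, as a difference of differences in the same fit. It differed from 48 h for 6 genes (0.108% of those tested), 5 upward (0.0899%) and 1 downward (0.018%). The difference was positive for Postn (2.39), Cldn5 (1.33), H2az1 (1.16), Cd93 (1.07) and Col4a1 (1.00) and negative for Art3, an ADP-ribosyltransferase family member expressed in muscle (-1.12), with limma adjusted p from 0.0106 to 0.0216. Leaving out 1 array of 10 d gave adjusted p of up to 0.082 for Postn (without TAC replicate 2), 0.0662 for Col4a1 and 0.066 for H2az1 (both also without TAC replicate 2). None of the 6 differences from 48 h passed with the replicate block (limma adjusted p from 0.0808 to 0.219). Col4a1 had effects of 0.31, 1.31 and 0.80 at 48 h, 10 d and 3 wk, and Art3 of 0.33, -0.79 and -0.47. It differed from 3 wk for Cldn5 alone (1.46 ± 0.23, adjusted p = 0.00514; 0.018% of genes). With the scan day as a block, that Cldn5 difference was 1.27 with a limma adjusted p of 0.111. With the replicate block it was 1.41 with an adjusted p of 0.0987. Cldn5 had effects of -0.02, 1.31 and -0.15, so that of these durations it was called only at 10 d. Klf2 had effects of 0.71, 2.46 and -0.65, but the difference from 3 wk did not pass (3.11 ± 0.79, adjusted p = 0.243).

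**Figure D5:**
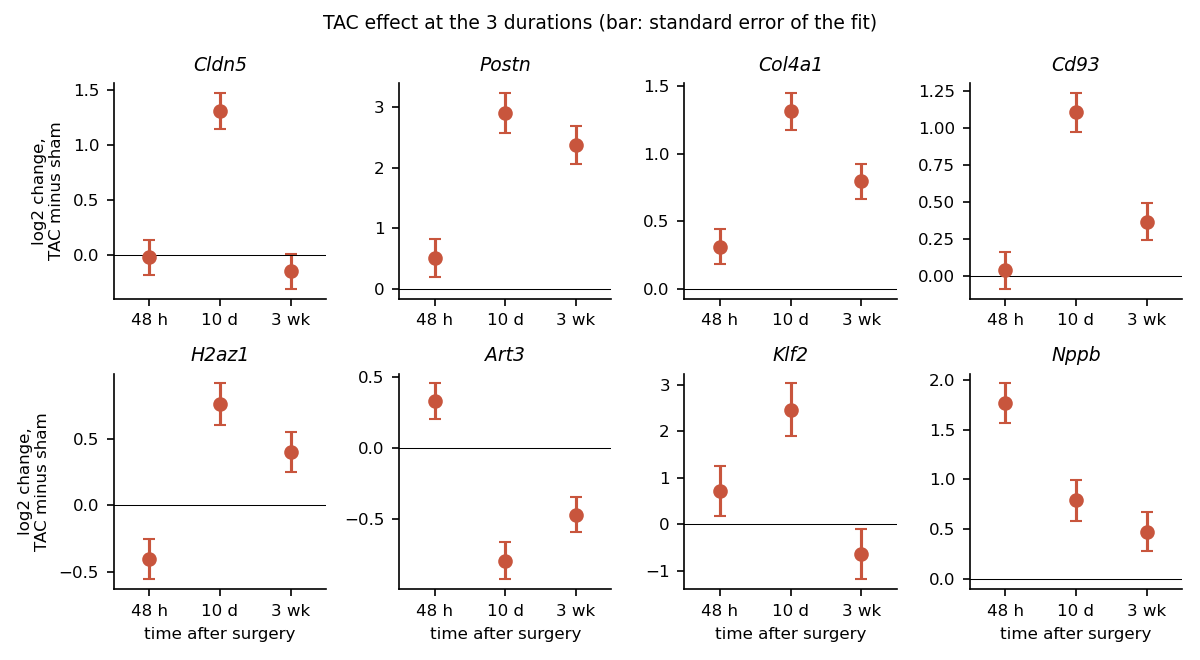
Log2 change (TAC minus sham, vertical axes with their own ranges) of 8 genes at 48 h, 10 d and 3 wk, with the standard error of the fit as the bar. Cldn5 stands at 1.31 at 10 d and near 0 at the other durations, Postn stays high at 3 wk (2.38), and Nppb is highest at 48 h (1.77).

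Each duration had its own sham arrays. Of the 169 genes that rose at 10 d, 61 were also called higher at 3 wk, which is 36.1% of the 10 d rises and 37.4% of the 163 rises at 3 wk (2.93% of genes tested). Of the 111 falls 30 were shared, 27% of those at 10 d and 28.6% of the 105 at 3 wk (1.89%). These shares need a call at both durations. By sign alone, 157 of the 169 rises were also higher in TAC at 3 wk, and 103 of the 111 falls were also lower. At 48 h the same held for 133 rises and 81 falls. At 48 h 3 genes were called higher (0.0539%) and 0 lower, and 1 of the 3 was among the 10 d rises. That gene was Nppb, with an effect of 1.77 at 48 h. Genes called at 10 d had a median effect of 0.15 (rises) and -0.096 (falls) at 48 h, and of 0.44 and -0.30 at 3 wk. They were picked by passing at 10 d, which alone tends to make their effects at other durations look smaller. Durations were scanned on different days, so a level at 1 duration was not set against that at another, and each effect was taken within its duration. At 3 wk this does not remove the scan day. TAC replicates 4 and 5 there had a scan day and chip lot that no sham array is known to share. Sham replicates 1 and 4 of 3 wk had neither stated. The 3 wk effect, and each comparison with it, therefore cannot be fully told apart from scan day and lot.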

How the data were processed

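The authors deposited 1 value per probe set and array, an intensity on a linear scale. The summarisation and scaling methods are not given in the sources used here. The trimmed mean of every array (outer 2% removed) was 2501.81 to 2502.2, and values ran from 0.4 to 335354.1. The deposited experiment files gave the chip type, lot and scan day, which were used only as batch codes. Arrays have no read depth, and their number limits the precision.

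Intensities below the 20th percentile of all values (167.9) were set to it before log2. The chip holds 12488 probe sets, of which 66 are controls and were not used. The 7297 others above the pooled median (880.1) on at least 4 of the 26 arrays were tested. Genes were named through GEO's platform annotation, updated by RefSeq gene tables. Of the tested probe sets 6584 had 1 gene, 248 several and 465 none, and only those with 1 gene were named. A gene stands by its tested probe set of highest mean. limma 3.58.1 in R 4.3.3 fitted the means of the 6 groups over all 26 arrays with a trend on intensity (two-sided, Benjamini-Hochberg). Single values used two-sided exact permutation tests (Python 3.11.15). The fit was tested on simulated data.

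The members and gene lists were chosen with earlier results of these data known. Named genes were the 15 largest rises and falls without overlap, up to 4 called members per list (the 2 brightest where none was called, described only where a result turns on them), 12 standard hypertrophy and matrix genes, those whose effect differed between durations and the 5 smallest adjusted p. Others were chosen after their values were seen: further called members of the lists, Myl4, genes that did not pass the filter, and the promoters. Alternatives covered normalization, floor, filter, trend, array weights, arrays in the fit, blocks for replicate number or scan day, and leaving out each array.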

Additional observations from a re-analysis of the deposited data

Results flagged for a closer look

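Among 310 groups of 4 arrays (the named genes at 10 d, sham and TAC apart), 20 held an array far from the other 3 by Dixon's criterion, where chance alone gives about 1 in 20 such groups. TAC replicate 1 accounted for 10 of them. It was low for Ccn2 (13.08, others 14.15 to 14.21), Col15a1 (12.68, others 13.49 to 13.64), Col18a1 (12.12), Col3a1 (13.41, others 14.17 to 14.25), Col5a2 (12.32, others 13.14 to 13.26) and Pcolce (12.67), and high for Efnb3 (13.23), Hopx (15.4), Ivd (13.17) and Vegfb (15). For the matrix genes Col15a1, Col18a1, Col3a1 and Col5a2, and for Efnb3, Hopx and Ivd, which fell, this array lay on the side of the sham arrays. TAC replicate 4 was high for Cavin1 (14.74) and low for Kcnj12 (7.39, the floor) and Sdha (12.92), and TAC replicate 2 was high for Cd63 (14.48). Among sham arrays, replicate 3 was low for Col8a1 (10.99), Lcp1 (10.14), Serpinh1 (13.32) and Tef (13.31) and high for Sqstm1 (14.95), and replicate 2 was high for Dpp7 (8.67).

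The effect of TAC differed between durations, by the test of the difference itself in the main limma fit, for 6 genes. With the replicate block none of the 6 differed from 48 h (limma adjusted p from 0.0808 to 0.219). Against 48 h the effect at 10 d was greater for Postn by 2.39, Cldn5 by 1.33, H2az1 by 1.16, Cd93 by 1.07 and Col4a1 by 1.00, and differed by -1.12 for Art3. Against 3 wk it was greater for Cldn5 by 1.46, or by 1.27 with the scan day as a block, where it did not pass (adjusted p = 0.111). H2az1 had effects of -0.41 at 48 h and 0.76 at 10 d, and Cd93 of 0.04 and 1.11.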

How the results depend on the processing

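On the same probe sets, all 280 called genes kept their sign without TAC replicate 4 and with the scan day as a block, which give the same estimates. For the 257 without overlap this was fixed beforehand, because leaving out 1 array cannot reverse groups that lie apart. The replicate block and the fit of the 10 d arrays alone leave the difference of the group means unchanged, so no sign could change there. Of these 280 genes, 157 were also called without TAC replicate 4 and 199 with the scan day as a block. With the replicate block 147 were also called, and in the fit of the 10 d arrays alone 244. The fit limited to the 10 d arrays of 1 scan day and chip lot was chosen after seeing the data. The 355 probe sets called at 10 d became 718 with array quality weights and 538 in the fit of the 10 d arrays alone. Leaving out 1 array gave 187 to 389, namely 225, 234, 244 and 211 without sham replicates 1 to 4 and 389, 187, 210 and 215 without TAC replicates 1 to 4. The 7 probe sets whose effect differed from 48 h became 25 with the filter at the 70th percentile, 4 with no intensity trend, 34 with weights and 4 to 22 when 1 array was left out (22 without TAC replicate 1). The 2 that differed from 3 wk became 4 with no filter on level (3 higher, 1 lower). With the scan day as a block neither was called, and 4 others were, all lower. Apart from fewer arrays or probe sets in a fit, the cause was not tested. Probe sets near the floor limit what small changes of dim genes could be seen.

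The titles number the replicates and do not say whether equal numbers form a pair, and the main fit used no pairing. The deviations of same-numbered sham and TAC arrays at 10 d correlated at -0.0655, 0.0287, -0.0379 and -0.0172 over probe sets. Low correlations of so few arrays cannot show whether they were paired in surgery or handling. The replicate block gave 198 called probe sets at 10 d, 1 that differed from 3 wk and 0 that differed from 48 h (limma, 592 at an unadjusted p under 0.05). The 1 that differed from 3 wk was not Cldn5, whose difference there was 1.41 (limma adjusted p = 0.0987).

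Some genes that were not called changed sign. TAC replicate 4 is alone in its scan day at 10 d, so leaving it out, blocking on scan day and keeping 1 scan day gave the same values: Atp2a2 -0.02, Mybpc3 -0.122, Myh6 -0.142 and Rpl41 -0.154. When 1 array was left out, values ran from -0.02 to 0.255 for Atp2a2, -0.122 to 0.364 for Mybpc3, -0.142 to 0.177 for Myh6, -0.82 to 1.199 for Myl7 and -0.154 to 0.591 for Rpl41. Quantile normalization gave -0.017 for Mybpc3 and -0.105 for Myh6, and weights gave -0.016 for Myh6 and 0.1 for Myl7. Median centring and the offset each gave 0.031 for Myl7. Among called genes, taking another probe set of the gene, that of largest interquartile range, turned the sign for 4, none of which passed with it, to 0.147 for Bag3, -0.073 for C1qb, -0.693 for Csf1r and -0.305 for Tnfrsf1a. The 3' to 5' ratio of Gapdh probe sets differed by -0.022 without TAC replicate 4, against 0.01 with it.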

Other observations

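Interferon and antigen presentation genes varied between arrays in another order than the matrix genes. The list (27 tested genes) averaged 0.54 above the sham mean on TAC replicate 1 and -0.19 to 0.004 on TAC replicates 2 to 4. TAC replicate 1 was the highest of the 8 arrays for 14 of the 27 genes and sham replicate 3 for 5. Igtp, an interferon-induced GTPase, read 11.07, 12.32, 13.77 and 11.96 in sham and 13.56, 10.60, 11.02 and 10.72 in TAC arrays. Iigp1, of the same family, read 12.52, 13.76, 14.76 and 13.58 in sham and 14.89, 12.84, 12.80 and 12.49 in TAC arrays. Both had sham replicate 3 and TAC replicate 1 as their highest arrays, and neither was called (limma adjusted p = 0.692 and 0.823). Cd74, the invariant chain of class II molecules, read 14.40 to 14.74 in sham, 15.43 on TAC replicate 1 and 14.66 to 14.99 on the other TAC arrays. These genes were chosen after their values were seen.

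Some called genes outside the lists, also chosen after their values were seen, have known roles in growth and signalling. Mest, an imprinted gene of fetal tissue, rose by 1.11, Uck2, a uridine kinase that salvages pyrimidines, by 1.13, and Mgp, the matrix protein that blocks calcification, by 0.90. Nfkbia and Rela, the inhibitor and a subunit of NF-kappaB, rose by 0.57 and 0.37. Ghr, the growth hormone receptor, fell by 0.43 on the log2 scale, Prkaca, a catalytic subunit of protein kinase A, fell by 0.38, and Fhod3, a formin of the cardiac sarcomere, fell by 0.44. None of these overlapped between groups. Jag2, a Notch ligand, rose by 1.496 with overlapping arrays (adjusted p = 0.0351).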
